A study of Mus musculus with 6 samples.

Results

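The promoters of 7 genes that act in cell division, DNA replication or DNA repair were examined: Ect2, Timeless, Rbl1, Nhej1, Slx4, Dclre1b and Rint1. They were 7 of the 235 promoters in the deposited table, each found there by its gene symbol. The genes were chosen by function, with their changes between the culture conditions in these same libraries already known, so those changes are given as a description and support nothing. Ect2 acts in cytokinesis, Timeless and Rbl1 act in replication or entry into it, and the other 4 act in repair.

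Open chromatin was mapped by ATAC-seq, a method that uses the Tn5 transposase to cut accessible DNA and add sequencing adapters to it. The tissue was limb explants from CD-1 mice, outbred and wild-type, taken 1 day after amputation, and the labels name no allele or agent in any group. One group was cultured at an air-liquid interface (ALI) and the other in 96-well plates, with 3 libraries per group. The labels name 4 limbs from each kind of culture, without saying whether that number is per library, and are silent on whether each library had its own animals. The p-values therefore reflect spread among these libraries, and that spread may be technical. By its title the series is about how oxygen is sensed when limbs begin to regenerate, and the comparison addresses accessibility under the 2 ways of culture. No age of the animals is stated in the labels.

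A dividing cell copies its DNA, mends damage met on the way and then splits its body into daughters. Many genes of these steps are controlled in the cell cycle at their promoters, through E2F factors and pocket proteins for entry into S phase, and through CCAAT boxes and cell cycle homology regions (CHR) for genes of mitosis. Repair genes are often active in resting cells too, and an open promoter shows that the transposase can reach the DNA, not how much RNA is made.

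The promoter DNA of 3 genes is shown because their peaks lay on different sides of the start site, that of Ect2 mostly before it and those of Rbl1 and Nhej1 mostly after it. Each sequence holds the 250 bases before the RefSeq start in build GRCm38.p6, on the minus strand, written 5′ to 3′ towards the start. Ect2 lies at chr3:27153879-27154128, Rbl1 at chr2:157204535-157204784 and Nhej1 at chr1:75125227-75125476. Capitals mark exact matches, on either strand, to the motifs searched. The accessibility table uses build GRCm39, and whether its start sites are the RefSeq starts was not tested.
Ect2: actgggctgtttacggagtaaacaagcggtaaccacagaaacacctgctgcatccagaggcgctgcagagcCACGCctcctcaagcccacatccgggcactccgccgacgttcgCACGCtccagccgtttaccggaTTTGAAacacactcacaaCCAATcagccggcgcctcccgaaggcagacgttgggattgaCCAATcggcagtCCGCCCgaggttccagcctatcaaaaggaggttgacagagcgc
Rbl1: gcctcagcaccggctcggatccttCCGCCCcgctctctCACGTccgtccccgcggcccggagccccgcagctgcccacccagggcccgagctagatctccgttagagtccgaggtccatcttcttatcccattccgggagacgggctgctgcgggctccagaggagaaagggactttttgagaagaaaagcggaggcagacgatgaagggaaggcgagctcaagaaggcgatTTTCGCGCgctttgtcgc
Nhej1: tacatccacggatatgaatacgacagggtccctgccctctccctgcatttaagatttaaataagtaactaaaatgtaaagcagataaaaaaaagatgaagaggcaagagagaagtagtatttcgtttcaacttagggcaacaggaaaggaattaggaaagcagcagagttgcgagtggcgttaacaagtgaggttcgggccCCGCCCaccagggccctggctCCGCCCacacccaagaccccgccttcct

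All 7 genes had an entry in the RefSeq promoter table, Ect2 with 2 starts, of which the first is shown. The 250 bases before Ect2 held CCAAT at 2 places and the CHR sequence TTTGAA, both known from promoters of mitotic genes. In windows of this length, CCAAT occurred in 33.8% of all 32851 entries and in 34.3% of the 204 entries for genes of the table, and TTTGAA in 15.99% and 17.2%. Rbl1 held TTTCGCGC, 1 of the E2F forms searched (TTTCGCGC, TTTGGCGC and TTTCCCGC), which occurred in 1.53% of all entries and 3.43% of those for the table. The SP sequence GGGCGG lay before Ect2, Rbl1, Nhej1 and Dclre1b, against 32.7% of all entries and 49.0% of those for the table. The core of the hypoxia response element, ACGTG or GCGTG, lay before Ect2 and Rbl1 and in the window of Slx4, against 38.6% and 46.1%, and its forms can match at overlapping places on opposite strands. CCAAT was also matched in the window of Slx4, but the RefSeq entry of that gene in particular may not be at the start used by the table, so its matches may not be promoter features. None of the 7 held the letters searched for NRF1 (GCGCATGCG), ETS factors (CCGGAAG) or YY1 (AAGATGGCG). The cyclic AMP response element (TGACGTCA, or TGACG within it) and the TATA box (TATAAA) were matched in none of them either. No motif of any kind was matched before Rint1 or in the window of Timeless. The RefSeq entry of Timeless may likewise not be at the start used by the table, so this lack may not describe its promoter. Such matches are letters in a window and were not tested as sites. Signal at Timeless, Rbl1 and Nhej1 lay mostly after the start used by the accessibility table, with 27.9%, 37.7% and 18.3% of it upstream. Bases after the RefSeq start were not searched, so for these genes the windows may leave out most of the accessible DNA.

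The windows before the starts also differed in base composition, with the same limit for Timeless, Rbl1 and Nhej1. The doubt about the start used holds here too for Slx4 and Timeless. GC content was 70.4% before Dclre1b, 63.6% before Rbl1 and 59.2% before Ect2, but 48.4% before Nhej1. It was 52.4% in the window of Timeless and 42% in that of Slx4. Medians were 52.4% over all entries and 57.6% over those for the table. CpG pairs occurred at 0.95 of the number expected from base content before Rbl1, at 0.93 before Ect2 and at 0.84 before Dclre1b. The values were 0.61 before Nhej1 and 0.51 before Rint1, and 0.33 and 0.27 in the windows of Timeless and Slx4. Medians were 0.37 over all entries and 0.63 over those for the table. Dclre1b alone among the 7 had a neighbour, Ap4b1, starting within 1000 bp in the opposite direction, as did 28 of the 164 table genes with an entry (17.1%).

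The values below are signal, that is coverage normalized to sequencing depth, averaged over the window from 1000 bp before to 1000 bp after the start site. The signal that 1 read adds to a base was between 0.0871 and 0.146, which gives relative depths of 0.767 to 1.29, and the windows of the 7 genes held from 48.5 (Rint1, ALI replicate 1) to 366.7 (Nhej1, ALI replicate 2) reads per base. Libraries differed in overall level. ALI replicate 2 and 96-well replicate 3 had the highest mean window signal of their groups, 18.6 and 14.7, against 10.1 to 12.4 in the other libraries. Changes between cultures were also computed without both of them. Peak shapes were recomputed without each library in turn only. The level order and the upstream shares were not recomputed without any library. The ratio of the central 400 bp to the outer 200 bp on each side, a measure of contrast, was 5.17 to 6.27 in ALI and 4.57 to 5.09 in 96-well libraries. Of the listed markers of limb tissue, Msx1 (mesenchyme) averaged 12.8 ± 3.02 (SD, n = 3) for ALI and 13.1 ± 4.03 for 96-well libraries. The ridge and ectoderm genes Fgf8, Sp6, Sp8, Trp63 and En1 had means of 1.57 to 9.93 and 2.04 to 8.59. Of these 5, Fgf8 (6.50 and 7.84), Sp8 (4.19 and 4.58) and Trp63 (1.57 and 2.04) stood lower in ALI, Sp6 (3.09 and 2.79) and En1 stood higher, and their part in the results on the 7 genes was not tested. The deposited table held no promoter of the listed muscle, endothelial, blood and cartilage markers, and Msx1 was the only listed mesenchyme marker in it. More cells of a type and more accessibility per cell cannot be told apart in these bulk libraries.

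Ect2 encodes the exchange factor that activates the GTPase RhoA at the cleavage furrow. Its window (chromosome 3, start site 27208028, window 27207029 to 27209028, minus strand, GRCm39) had signals of 21.5, 29.8 and 21.2 in ALI replicates 1 to 3 and of 12.8, 14.3 and 18.3 in 96-well replicates 1 to 3. The lowest ALI library stood above the highest 96-well library, and Ect2 was the only one of the 7 without overlap on the deposited values. Group means were 24.2 ± 4.84 (SD, n = 3) and 15.1 ± 2.82.

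Timeless encodes a protein that stabilizes stalled replication forks. Its window (chromosome 10, start site 128067935, window 128066935 to 128068934, plus strand) had signals of 15.1, 23.7 and 16.3 in ALI and 10.9, 11.7 and 16.5 in 96-well libraries. The groups overlapped through 96-well replicate 3, which lay just above ALI replicate 3. Rbl1 encodes a pocket protein related to the retinoblastoma protein, which restrains E2F factors. Its window (chromosome 2, start site 157046455, window 157045456 to 157047455, minus strand) had signals of 17.4, 28.3 and 18.8 in ALI and 15.4, 14.7 and 22.4 in 96-well libraries, so that 96-well replicate 3 lay above ALI replicates 1 and 3.

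Among the repair genes, Nhej1 encodes a factor that aligns broken ends for ligation in non-homologous end joining. Its window (chromosome 1, start site 75101845, window 75100846 to 75102845, minus strand) had signals of 19.2, 31.9 and 20.9 in ALI and 14.8, 14.2 and 21.7 in 96-well libraries. Slx4, a scaffold for nucleases that cut branched DNA (chromosome 16, start site 3821635, window 3820636 to 3822635, minus strand), had 16.5, 25.2 and 17.1 in ALI and 13.2, 12.7 and 18.9 in 96-well libraries. In both genes 96-well replicate 3 lay above ALI replicates 1 and 3, and the other 96-well libraries lay below all ALI libraries.

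Dclre1b encodes a nuclease that protects telomeres and helps to repair crosslinked DNA. Its window (chromosome 3, start site 103716761, window 103715762 to 103717761, minus strand) had signals of 13.5, 21.9 and 14.8 in ALI and 12.9, 12.3 and 18.6 in 96-well libraries. Rint1, named as a partner of the repair protein RAD50 and also active in vesicle transport (chromosome 5, start site 23992710, window 23991710 to 23993709, plus strand), had 7.08, 11.99 and 9.81 in ALI and 6.84, 7.41 and 11.9 in 96-well libraries. Rint1 was the weakest of the 7 in every library. The plot of window signal by library shows these values.

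**Figure D1:**
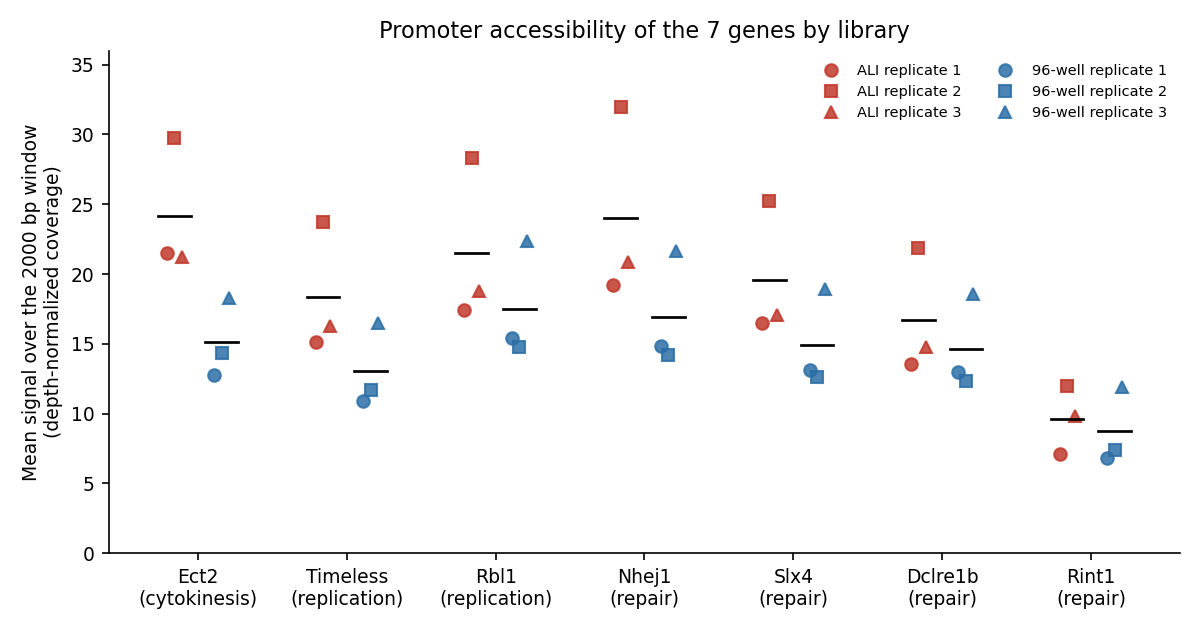
Mean signal over the 2000 bp window (vertical axis, depth-normalized coverage) of each of the 7 promoters, with 1 point per library and a bar at the mean of each group of 3. ALI replicate 2 was the highest library at every gene, Rint1 lay lowest with signals from 6.84 to 11.99, and only at Ect2 did all ALI libraries (21.2 to 29.8) lie above all 96-well libraries (12.8 to 18.3).

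Ranked by mean log2 signal over the 6 libraries, the order was Nhej1, Rbl1, Ect2, Slx4, Dclre1b, Timeless and Rint1, so the cytokinesis, replication and repair genes were interleaved. Windows have the same length, so length plays no part in this order, but the part of base composition in the signal was not tested. Neighbours in this order were compared within libraries by an exact two-sided sign-flip permutation test, whose smallest p over 6 libraries is 0.031, adjusted over the 6 neighbouring pairs. No pair of neighbours passed at 0.05. With p limited in this way, whether a pair can pass depends on how many pairs reach the smallest p, whatever its difference. The lack of a pass therefore does not show that neighbours are alike. Timeless exceeded Rint1 by 0.77 ± 0.23 (SD, n = 6) in log2 signal, 1.70-fold, and was higher in 6 of 6 libraries (exact permutation p = 0.031, adjusted p = 0.094). Slx4 exceeded Dclre1b by 0.13 ± 0.12 in 6 of 6 libraries (exact permutation p = 0.031, adjusted p = 0.094). Rbl1 and Ect2 differed by 0.0083 ± 0.24, Rbl1 being higher in 3 of the 6 libraries, and Dclre1b and Timeless by 0.012 ± 0.18. Adjusted over all 21 pairs, 15 passed, each with the same order in 6 of 6 libraries (exact permutation p = 0.031, adjusted p = 0.044). Among them was Rint1 against each of the 6 others, by 0.77 to 1.14 in log2 signal. Timeless over Rint1 thus passed among 21 pairs and not among 6, with the same unadjusted p.

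The order depended on how much of the window was counted. In the central 400 bp the order was Ect2, Slx4, Nhej1, Dclre1b, Rbl1, Rint1 and Timeless, with 16 of 21 pairs passing. By peak height it was Ect2, Slx4, Nhej1, Dclre1b, Rbl1, Rint1 and Timeless as well, with 20 of 21 pairs passing. Rint1 and Timeless thus exchanged the last place, without passing the test in either measure (exact permutation adjusted p = 0.71 and 0.16). Timeless had 36.3% ± 3.91 (SD, n = 6) of its window signal in the central 400 bp, against 64.9% ± 4.62 for Rint1. Among all 235 promoters, the median rank percentile over libraries was 80.6 for Nhej1, 79.1 for Rbl1, 78.9 for Ect2, 73.2 for Slx4, 67.4 for Dclre1b and for Timeless, and 44.3 for Rint1.

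The peaks took 2 forms, narrow around the start site or broad and downstream of it, and repair genes were found in both. Ect2, Slx4, Dclre1b and Rint1 had the narrow form, and Timeless, Rbl1 and Nhej1 the broad one. Width was read as the unbroken run of bins at or above 0.5 of the peak height over the outer 200 bp, after a running mean over 3 bins of 20 bp, and the midpoint of that run gave the position.

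**Figure D2:**
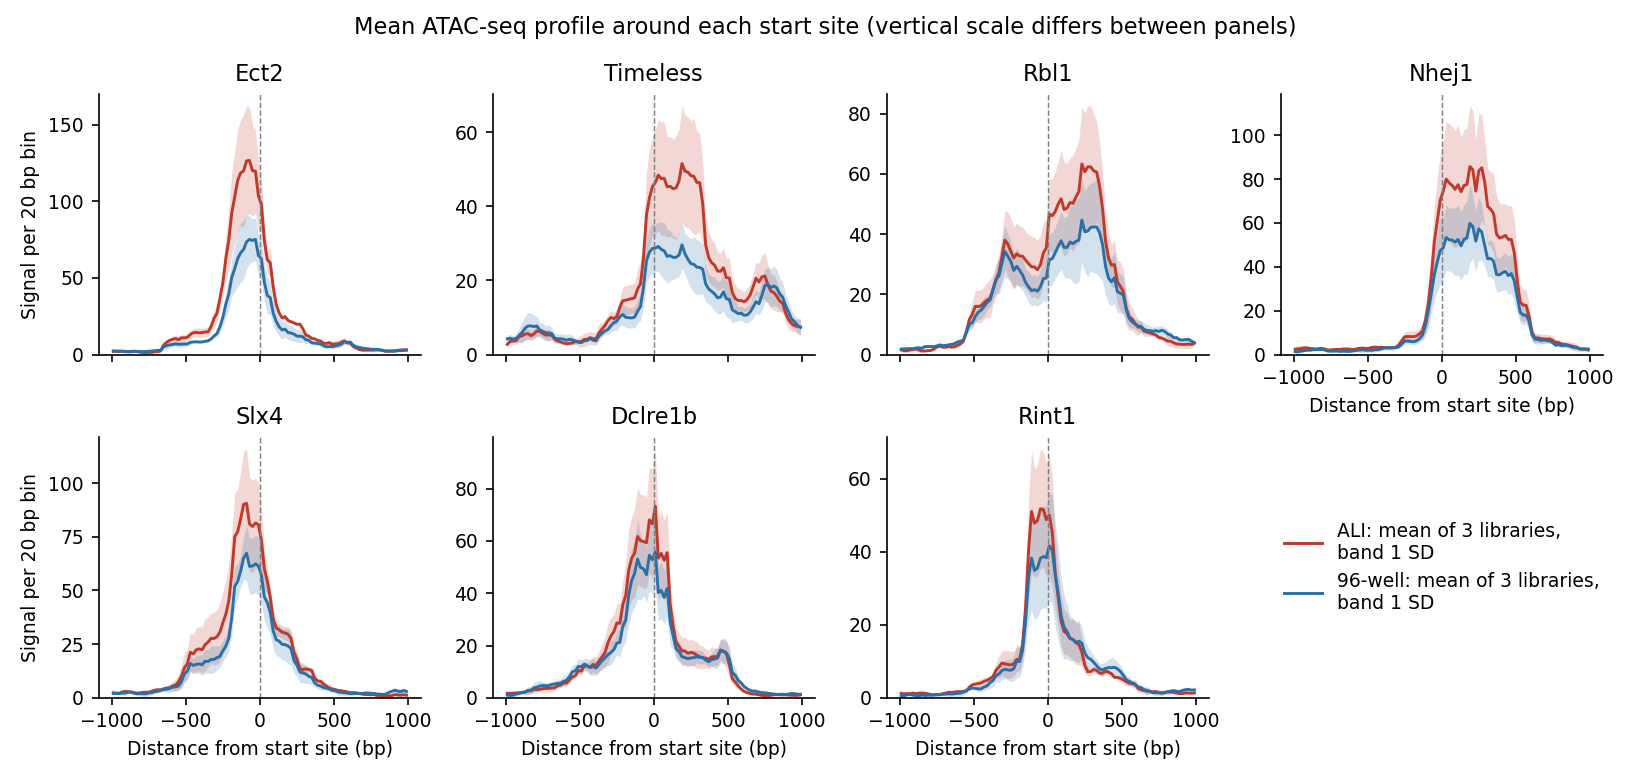
Mean signal per 20 bp bin (vertical axis, scale differing between panels) against distance from the start site in bp, with 1 line per group of 3 libraries and a band of 1 SD. Ect2, Slx4, Dclre1b and Rint1 rose to a single narrow peak at or before the start, while Timeless, Rbl1 and Nhej1 formed a plateau after it, with an added shoulder at −270 bp in Rbl1 and a second rise at +750 bp in Timeless.

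Ect2 had a width of 277 ± 15.1 bp (SD, n = 6) and its midpoint at −85 ± 5.48 bp, that is before the start. Slx4 was alike, at 283 ± 8.16 bp wide with the midpoint at −61.7 ± 9.83 bp. Dclre1b spanned −200 to +120 bp in every library, a width of 320 bp with its summit at −10 bp. Rint1 was the narrowest, at 247 ± 20.7 bp around a midpoint of −33.3 ± 8.16 bp. These 4 peaks lay near the middle of the table, with width percentiles of 41.7 (Rint1), 50.6 (Ect2), 52.3 (Slx4) and 65.1 (Dclre1b).

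Nhej1 had the widest peak on average, 560 ± 12.6 bp, which ran from about −60 to +500 bp around a midpoint of 217 ± 5.16 bp. Timeless was 420 ± 31.0 bp wide with the midpoint at 140 ± 14.1 bp. Rbl1 was 527 ± 139 bp wide with the midpoint at 167 ± 84.3 bp, and its spread came mostly from 96-well replicate 1. That library gave 800 bp, from −400 to +400 bp, because the shoulder before the start stayed joined to the main peak there, whereas the other 5 libraries gave 420 to 520 bp. The 228 other promoters had a median width of 270 bp and a median midpoint of 16.7 bp, and the width percentiles were 95.7 for Nhej1, 94.5 for Rbl1 and 86.4 for Timeless. Read at 0.25 of the height, widths rose by more than 1.5 times in Slx4 (580 bp), Dclre1b (603 bp), Rint1 (427 bp) and Rbl1 (987 bp), so the narrow form of Slx4 and Dclre1b describes the upper part of their peaks. Positions moved as well, with the midpoint of Rint1 passing to the other side of the start (30 bp), that of Rbl1 falling to 40 bp and that of Dclre1b standing at −21.7 bp.

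**Figure D3:**
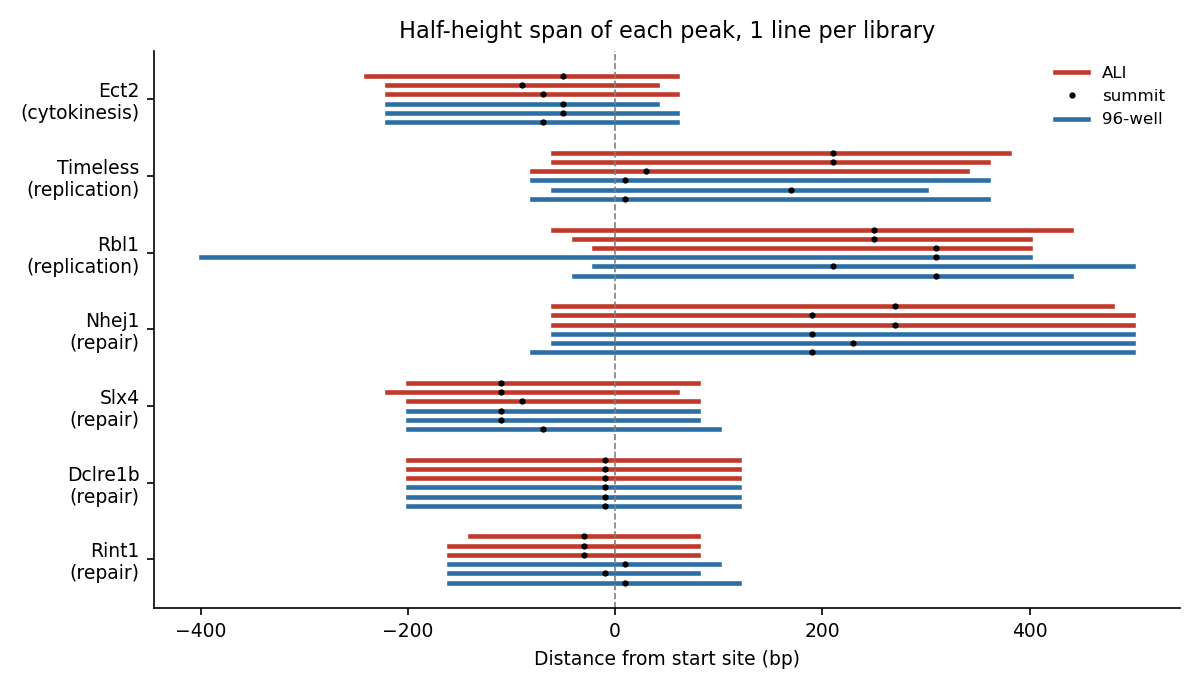
Span of each peak at or above 0.5 of its height (horizontal axis, distance from the start site in bp), with 1 line per library and a dot at the summit. The spans of Dclre1b were the same in all 6 libraries, and the only long departure was Rbl1 in 96-well replicate 1, at 800 bp.

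Rbl1 and Timeless each had a second rise in the window. In Rbl1 the shoulder at −270 bp reached 66.1% of the main maximum at +250 bp, with a dip to 48.0% at −90 bp between them. Signal at the shoulder averaged 36.4 ± 10.4 (SD, n = 3) for ALI and 32.6 ± 7.50 for 96-well libraries, and at the main maximum 62.1 ± 19.6 and 42.2 ± 14.2, with overlapping groups at both. In Timeless a rise at +750 bp reached 49.3% of the main maximum at +210 bp, after a dip at +610 bp. That rise averaged 20.3 ± 5.85 for ALI and 17.9 ± 4.41 for 96-well libraries, and the groups overlapped. At +210 bp the ALI libraries had 38.6, 67.4 and 44.4 and the 96-well libraries 22.7, 25.7 and 34.1, without overlap. How many of all promoters lack overlap at their main maximum was not counted, so nothing is read from its lack at Timeless.

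The side of the start site on which the signal lay was the same in every library for 6 of the 7 genes. The share of window signal upstream of the start was set against an equal split of 50%. An exact two-sided sign-flip permutation test over the 6 libraries was used, adjusted over the 7 genes. Here too, passing depends on how many genes reach the smallest p. Ect2 had 66.2% ± 2.94 (SD, n = 6), Slx4 64.6% ± 3.501 and Dclre1b 56.6% ± 1.21, each above 50% in 6 of 6 libraries (exact permutation p = 0.031, the smallest possible, adjusted p = 0.036). Rbl1 had 37.7% ± 2.94, Timeless 27.9% ± 2.68 and Nhej1 18.3% ± 0.81, each below 50% in 6 of 6 libraries (exact permutation p = 0.031, adjusted p = 0.036). Rint1, at 51.0% ± 4.48, was above 50% in 3 libraries and did not pass (exact permutation p = 0.625). In the central 400 bp alone Rint1 stood at 57.3% ± 3.03, above 50% in 6 of 6 libraries (exact permutation p = 0.031, adjusted p = 0.031). With the mean of the window edges subtracted from every bin, Timeless stood at −6.36% ± 18.5 (7.35% in ALI and −20.1% in 96-well libraries), which is no possible share, beside edge signals of 7.91 and 9.27. The median of the 228 other promoters was 44.8%, with quartiles of 36.2% and 56.2%. Of the repair genes, Nhej1 lay below the lower and Slx4 and Dclre1b above the upper quartile.

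The upstream share of Rint1 was 53.7%, 56.5% and 54.8% in ALI and 46.1%, 47.0% and 47.9% in 96-well libraries, so the 3 libraries above an equal split were those of ALI. That of Timeless was 27.1%, 24.4% and 25.8% in ALI and 31.9%, 28.3% and 29.7% in 96-well libraries, also without overlap and in the opposite direction. These differences between cultures lie in the contrast known when the genes were chosen and were not tested. How many of all promoters lack overlap in upstream share was not counted, so nothing is read from its lack at Rint1 and Timeless. The other 5 genes had overlapping groups.

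**Figure D4:**
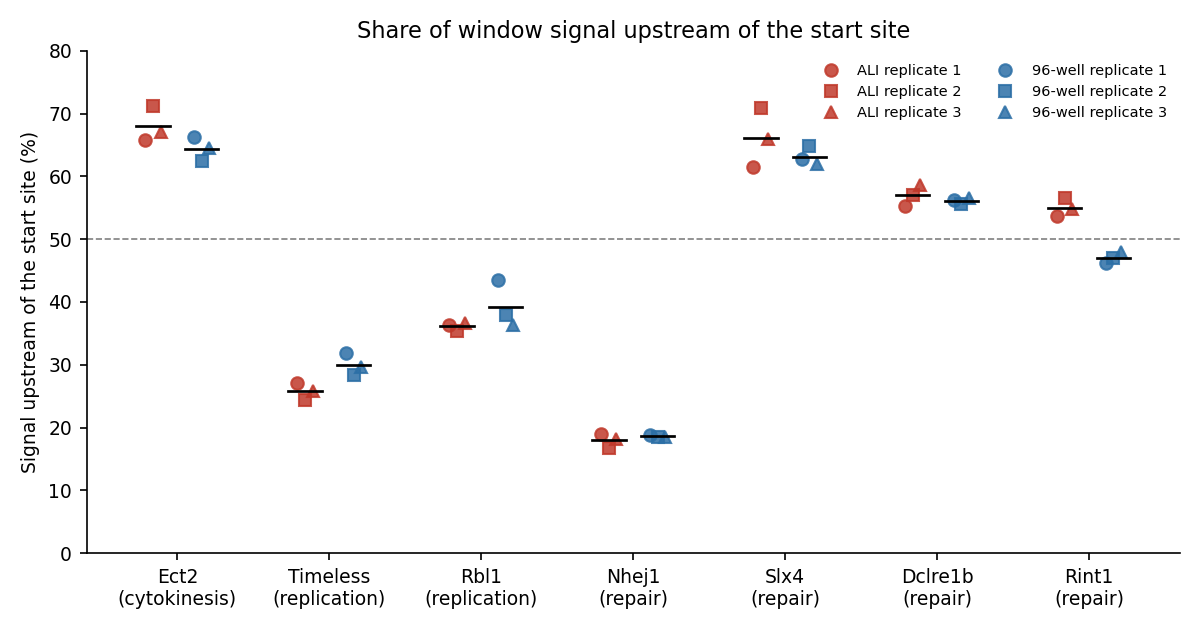
Share of window signal upstream of the start site in percent (vertical axis), with 1 point per library, a bar at each group mean and a dashed line at 50%. Ect2, Slx4 and Dclre1b lay above the line in all 6 libraries and Rbl1, Timeless and Nhej1 below it, while Rint1 lay above it in ALI and below it in 96-well libraries.

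The mean profiles grouped the members in the same way, given here as a description over 100 bins that share libraries and are not independent. Pearson's r was 0.97 between Ect2 and Slx4, 0.96 between Slx4 and Dclre1b and 0.94 between Timeless and Nhej1, but 0.31 between Ect2 and Nhej1. The promoter of the table with the most similar profile was Bambi for Ect2 (r = 0.99), Canx for Slx4 (0.99), Khdrbs2 for Rint1 (0.99), 3110070M22Rik for Dclre1b (0.98), Btbd6 for Nhej1 (0.95), Lgr5 for Timeless (0.95) and Dnajb14 for Rbl1 (0.92). By level over the 6 libraries after centring, the promoters most like Ect2 were Gm11457 (r = 0.95), Mrpl12 (0.95) and Nfkb2 (0.93). These values of r take in the difference between cultures, known when Ect2 was chosen, so nothing is read from them.

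Between cultures, Ect2 showed the largest difference of the 7 in mean window signal, followed by Nhej1 and Timeless on the deposited and centred values. Timeless stood before Nhej1 after quantile normalization and cyclic loess. It did so too in the central 400 bp, with log2 changes of 0.66 against 0.51 deposited and 0.41 against 0.26 centred. Dclre1b and Rint1 differed little. Changes are ALI minus 96-well in log2 of signal plus a pseudocount of 1.06, which understates changes of weak promoters, with limma and Benjamini-Hochberg adjustment over all 235 promoters. On the deposited values the change was 0.64 ± 0.33 (SE, limma adjusted p = 0.81) at Ect2, 0.47 at Nhej1, 0.46 at Timeless, 0.37 at Slx4, 0.27 at Rbl1, 0.17 at Dclre1b and 0.14 at Rint1. None of the 7 passed, as 0 of 235 promoters did (0%), and limma gave 7 promoters an unadjusted p under 0.05. Groups did not overlap with ALI higher at 1 of the 7 (Ect2), against 3.83% of the table (9 of 235). The median change was 0.37 over the 7 genes and 0.14 over all promoters. Leaving out ALI replicate 2 and 96-well replicate 3 was a choice made after seeing the data. The change was then 0.62 in Ect2, 0.44 in Timeless, 0.44 in Nhej1, 0.35 in Slx4 and 0.25 in Rbl1. Limma called all 5 higher in ALI, beside 79 of 235 promoters called in the table (76 higher, 3 lower).

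Relative to the other promoters of each library, Ect2 stood at 2.16 ± 0.14 (SD, n = 3) times the library median in ALI and at 1.53 ± 0.13 times in 96-well libraries. Nhej1 stood at 2.12 ± 0.06 and 1.70 ± 0.07, Timeless at 1.63 ± 0.03 and 1.31 ± 0.04, and Slx4 at 1.74 ± 0.02 and 1.50 ± 0.07. Dclre1b, by contrast, stood at 1.48 and 1.47, and Rint1 at 0.86 and 0.87.

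With each library centred on its median deviation, 3 of the 7 promoters were called higher in ALI by limma, against 11.5% of the table (27 of 235), and 0 were called lower, against 10.2% (24 of 235). The change was 0.47 ± 0.09 (SE, limma adjusted p = 0.00011) at Ect2, 0.31 ± 0.09 (limma adjusted p = 0.0095) at Nhej1 and 0.29 ± 0.09 (limma adjusted p = 0.010) at Timeless. Slx4 had 0.20 ± 0.09 (limma adjusted p = 0.10), Rbl1 0.11 (limma adjusted p = 0.44), Dclre1b 0.0069 (limma adjusted p = 0.98) and Rint1 −0.031 (limma adjusted p = 0.86). Groups did not overlap, with ALI higher, at 4 of the 7 (Ect2, Timeless, Nhej1 and Slx4), against 21.7% of the table (51 of 235). Nothing is read from these shares, since the genes were chosen with this contrast known. The ALI libraries also had the higher ratio of window centre to edge given above, and its part in these changes was not tested. The median change was 0.20 over the 7 genes and −0.031 over all promoters.

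The calls after centring rested on the error model and on single libraries. The standard errors came from the mean-variance trend alone, so they reflect promoters of like signal rather than the single promoter, and without the trend none of the 7 was called (limma adjusted p = 0.061 at Ect2). Without 96-well replicate 1, Timeless (limma adjusted p = 0.14) and Nhej1 (limma adjusted p = 0.093) were not called, and the table gave 22 calls in place of 51. Without 96-well replicate 2, Timeless (limma adjusted p = 0.073) and Nhej1 (limma adjusted p = 0.14) were again not called, and the table gave 25 calls. Ect2 was called without each library in turn. Slx4 was called in 4 of 16 alternatives. These were without 96-well replicate 3 (0.25, limma adjusted p = 0.034) and without both high libraries (0.22, limma adjusted p = 0.024). The others were among the 176 promoters of higher signal (0.14, limma adjusted p = 0.037) and with equal flank signal (0.27, limma adjusted p = 0.025). Scaling to equal flank signal gave 58 higher and 15 lower calls in the table. Nhej1 missed the threshold with the larger pseudocount (limma adjusted p = 0.053). Quantile normalization gave smaller changes of 0.34 at Ect2, 0.23 at Timeless and 0.19 at Nhej1. All of these were called, Ect2 just under the threshold (limma adjusted p = 0.049), beside 19 higher and 19 lower calls among the 235 promoters. That scaling turned Rbl1 (−0.030) and Dclre1b (−0.088) to the other side of 0, without a call. Cyclic loess gave 0.36, 0.24 and 0.19 at the same 3 genes, also called, beside 31 higher and 30 lower calls in the table.

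**Figure D5:**
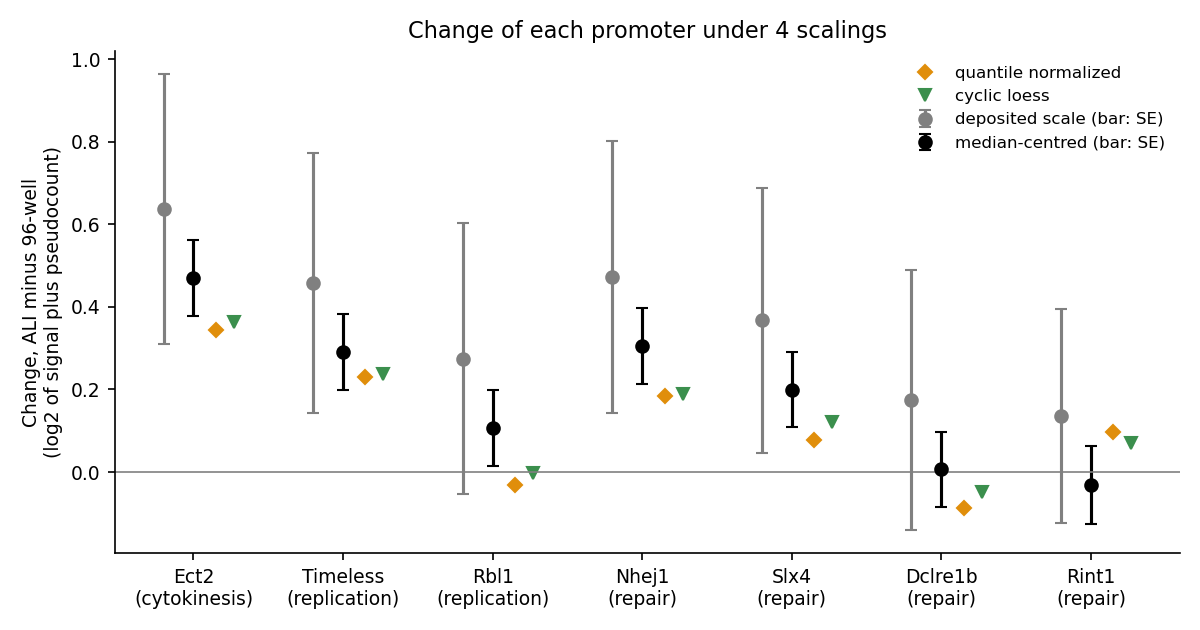
Change of each promoter, ALI minus 96-well in log2 of signal plus pseudocount (vertical axis), on the deposited scale and after median centring with bars of 1 SE, and after quantile normalization and cyclic loess without bars. Ect2 was highest under all 4 scalings (0.64, 0.47, 0.34 and 0.36), while Rbl1, Dclre1b and Rint1 lay between −0.088 and 0.11 in the 3 rescaled sets and changed side between scalings.

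Within the Ect2 window the difference lay in and around the peak and not at the window edges. At −70 bp the ALI libraries had signals of 98.7, 162.2 and 112.2 and the 96-well libraries 60.7, 70.9 and 91.7, without overlap. The ratio of group means was 1.67 over the central 400 bp, 1.81 from −600 to −200 bp and 1.37 from +200 to +600 bp, each without overlap. In the outermost 400 bp it was 1.01 before and 0.90 after the start, with overlapping groups. At Timeless the ratio was 1.63 over the central 400 bp and 1.65 from +200 to +600 bp, but 1.08 from +600 to +1000 bp, where the second rise lies. At Nhej1 it was 1.45 over the central 400 bp and again 1.45 from +200 to +600 bp, with overlap in both. It was 1.46 also at the weak edge from −1000 to −600 bp, without overlap, where the signal was 2.56 ± 0.57 in ALI and 1.76 ± 0.28 in 96-well libraries. Rint1 was likewise higher in ALI at that edge (ratio 1.45), without overlap, at low signals of 1.21 in ALI and 0.84 in 96-well libraries. Other edges lay lower in ALI without overlap. Ratios were 0.73 at Rbl1 from −1000 to −600 bp, and 0.63 at Slx4 and 0.64 at Dclre1b from +600 to +1000 bp. Signals in ALI and 96-well libraries were low there, at 1.94 and 2.67 for Rbl1, 1.49 and 2.36 for Slx4, and 1.25 and 1.96 for Dclre1b. The share of all promoters without overlap in each region, or at the main maximum, was not counted, so nothing is read from these cases. Peak height gave ratios of 1.73 at Timeless, 1.67 at Ect2, 1.45 at Rbl1 and Nhej1, 1.36 at Slx4, 1.27 at Dclre1b and 1.26 at Rint1. All these ratios are of deposited values, on which 166 of 235 promoters (70.6%) had a positive change in window signal. The same ratios were not computed over all promoters, so they do not show that a gene stood out from the table. 

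Peak widths by culture, given in the order ALI and 96-well, were 280 ± 20 bp (SD, n = 3) and 273 ± 11.5 bp in Ect2, 427 ± 11.5 bp and 413 ± 46.2 bp in Timeless, and 453 ± 41.6 bp and 600 ± 174 bp in Rbl1. The mean of Rbl1 in 96-well culture contains the 800 bp of replicate 1. Among the repair genes they were 553 ± 11.5 bp and 567 ± 11.5 bp in Nhej1, 280 bp in each ALI library and 287 ± 11.5 bp in Slx4, 320 bp in every library in Dclre1b, and 233 ± 11.5 bp and 260 ± 20 bp in Rint1. ALI and 96-well means differed by 26.7 bp in Rint1, 146.7 bp in Rbl1 and at most 13.3 bp in the other 5, and these differences were not tested.

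Other genes of these pathways were sparse in the table. Of 233 genes listed for cytokinesis and mitosis, DNA replication, cell cycle control, repair and checkpoints, and histone mRNA processing, 10 were in it, namely the 7 members and 3 others. The lists for cytokinesis and mitosis (54 genes), replication (51) and repair (81) held no further gene of the table. Mxi1, an antagonist of Myc, stood lower in ALI after centring (−0.28 ± 0.09 SE, limma adjusted p = 0.013). The histone mRNA processing genes Slbp, which binds the stem-loop of histone mRNAs, and Lsm10, part of the particle that cuts them, stood higher (0.32, limma adjusted p = 0.026, and 0.38, limma adjusted p = 0.0016). On the deposited values limma called none of these 3. With the members, 5 of the 10 were called higher and 1 lower after centring, against 11.5% and 10.2% of the whole table. Since 7 of the 10 were chosen with this contrast known, nothing is read from that count.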

How the data were processed

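ATAC-seq libraries of limb explants, 3 from ALI and 3 from 96-well culture, were analysed. The deposited values are signal, that is depth-normalized coverage in bins of 20 bp around 235 start sites, computed by the authors with deepTools per the file headers. Per the submitters' processing notes, the build was GRCm39 and the tools included deepTools 3.5.1, Bowtie2 2.5.1, Picard, SAMtools 1.16.1 and Trim Galore 0.6.10, listed without their roles. The formula of the normalization, the handling of the Tn5 offset and the choice of the 235 genes are not given in the sources used here. Low bin values were whole multiples of 1 step per library to within 0.1 of a step, which gave relative depth. Total reads are unknown, so no count test was run.

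Window means were taken as log2(signal + 1.06), the pseudocount being 0.1 of the median promoter signal, and tested with limma 3.58.1 in R 4.3.3 (eBayes with trend) over all promoters, on the deposited scale and after subtracting each library's median log2 deviation. Shapes and sign-flip permutation tests were computed in Python 3.11.15. No filter on low signal was used, and all 7 members entered each test. The steps were tested on simulated data. The members and lists were chosen with earlier results of these data known. Named genes were the 7 members, listed pathway genes called on either scale or up to 3 per list by p, and the promoters most like a member. Alternatives covered pseudocounts, a low-signal filter, scalings, the central 400 bp, a replicate block, the trend, each library left out, smoothing and height thresholds. Libraries were left out for changes and peak shapes only. Sequences come from RefSeq, GRCm38.p6. Without a GRCm39 annotation, exons and UTRs were not assigned.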

Additional observations from a re-analysis of the deposited data

How the results depend on the processing

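With only 3 libraries per culture, unknown total reads and libraries that differ in overall level, small changes cannot be resolved here, and the cause of each shift below was not tested unless named. On the deposited scale 0 promoters were called by limma with a smaller or larger pseudocount, in the central 400 bp, with the low-signal filter, without the trend, and with any 1 library omitted (0 to 0). Median centring gave 51 calls, quantile normalization 38, equal flanks 73 (58 higher, 15 lower) and cyclic loess 61. Without both libraries of high signal, an alternative chosen after seeing the data, 79 were called (76 higher, 3 lower). After centring, 89 were called among the 176 promoters of higher signal, 0 without the trend, 78 without both high libraries and 22 to 58 with each library left out. Deviations from the group means correlated between same-numbered libraries with r of 0.67, −0.61 and −0.60. With 3 libraries per group these deviations sum to 0, so the values cannot decide whether the numbers pair the libraries. With a replicate block 0 promoters were called on the deposited and 39 on the centred scale, Ect2, Timeless and Nhej1 included. Ect2, Timeless, Nhej1 and Slx4 kept a positive change under every alternative run on either scale. Rbl1 turned to −0.030 after quantile normalization and −0.0013 after cyclic loess, from 0.27 deposited or 0.11 centred. Dclre1b turned to −0.088 after quantile normalization, −0.049 after cyclic loess and −0.050 with centring and the low-signal filter, and ranged from −0.024 to 0.35 deposited and from −0.042 to 0.054 centred with each library left out. Rint1 turned to −0.031 after centring, and from there to 0.064 without both high libraries, 0.096 after quantile normalization, 0.040 with equal flanks and 0.071 after cyclic loess. With each library left out it ranged from −0.021 to 0.36 deposited and from −0.11 to 0.065 centred. Of 140 alternative values of peak width and midpoint, 23 moved by more than 1 SD, most of them at the lower height threshold. The number of upstream shares that passed was 6 of 7, and 7 in the central 400 bp. It was also 6 with the edge mean subtracted, where Timeless moved from 27.9% to −6.36%.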
